A study of Arabidopsis thaliana with 4 samples.

Results

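The levels of 8 glycine-rich and cold shock RNA chaperone genes are described in 4 leaf RNA sequencing libraries of *Arabidopsis thaliana*. The members were fixed by gene code: the glycine-rich RNA-binding protein genes GRP7 (AT2G21660), GRP8 (AT4G39260), GR-RBP2 (AT4G13850) and GR-RBP4 (AT3G23830), and the cold shock domain protein genes CSP1 (AT4G36020), CSP2 (AT4G38680), CSP3 (AT2G17870) and CSP4 (AT2G21060). These are 8 of the 23049 genes listed in at least 1 library, and all 8 were read in all 4 libraries. All 8 also passed a filter on the mean level, 1 CPM or more (CPM, counts per 1 M counted reads of the library). Per the labels, the plants were 2 weeks old and grown on soil in long days. Each of the 4 groups is 1 library: the wild type Col-0 kept at 20 °C, the line sme1-1 (background ecotype Col-0) kept at 20 °C, the wild type moved to 4 °C for 24 h, and sme1-1 moved to 4 °C for 24 h. Values listed 4 at a time below follow this library order. Photon flux was 90 µmol m-2 s-1 for growth but 40 µmol m-2 s-1 in the cold, so temperature and light change together. The sources used here do not state the nature of the sme1-1 allele, how many plants a library holds or the hour of harvest. The series title names SmE1, a subunit of the Sm protein ring around spliceosomal small nuclear RNAs, as the protein under study.

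Glycine-rich RNA-binding proteins of this class join an N-terminal RNA recognition motif to a glycine-rich tail. Cold shock domain proteins carry the nucleic acid-binding fold of the bacterial cold shock proteins, followed in plants by glycine-rich stretches and CCHC zinc knuckles. Both kinds can melt secondary structure in RNA, which becomes more stable as temperature falls, and several were described in Arabidopsis as cold-induced or as aiding growth or survival in the cold. GRP7 is in addition an output of the circadian clock that binds its own pre-mRNA and that of GRP8 and lowers both through alternative splicing.

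The libraries were checked against their labels before any comparison. SME1 (AT2G18740), the gene named by the mutant line, had levels of 14.7, 27.8, 0.679 and 0.919 CPM in library order. The low values thus lay in both libraries labelled 4 °C and not in both labelled sme1-1. The cold-regulated genes COR15A and KIN1 had their high values in both libraries labelled sme1-1: COR15A was at 25.9, 5092, 30.1 and 6272 CPM and KIN1 at 0.852, 428, 1.72 and 974 CPM. RD29A, COR47, COR15B and LTI30, the other cold-regulated genes of the check, were also highest in those libraries. The labels of the libraries sme1-1 20 °C and Col-0 4 °C are therefore in doubt, and every direction below is a direction between labels. Were these labels exchanged, each comparison by genotype label would be one by temperature, and the reverse. Whether they are exchanged was not tested. The pair sme1-1 4 °C and Col-0 20 °C leaves both doubtful libraries out. Its ratios are given for the 8 members and for genes past the filter named from the RNA-binding, helicase, partner and clock lists. Totals were 44.6 to 47.2 M reads counted as unique per the file headers, at which a count of 0 allows up to 0.0636 to 0.0672 CPM. The 5 leaf markers summed to 39727 to 51168 CPM, those of seed to at most 0.178 CPM and those of flower to at most 1.59 CPM, with no flower marker at 0 and 2 or 3 of the 4 seed markers at 0. The 5 root markers summed to 73.0 to 192 CPM, nearly all of it PYK10 (70.9 to 191 CPM), with none to 2 of them at 0. That root sum, set by PYK10, was lower in both libraries labelled sme1-1, and its part in the results was not tested. NRT2.1, which did not pass the filter, went the other way (0.269, 1.80, 0.339 and 0.962 CPM in library order). IRT1, COBL9 and PRP3 were under 1 CPM in every library. Fewer cells expressing a gene and less RNA per cell cannot be told apart in whole leaves. The range in parentheses after a fold is its exact 95% interval from the read numbers, which covers counting error only and holds no spread between plants.

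A short stretch of coding sequence is shown first, because both families carry an RNA-binding motif there. In each coding sequence the first in-frame match to GGNTNN followed directly by GGNTTN (coding strand only), which encodes the core of the RNP1 motif that stacks on RNA bases, was read from the TAIR10.1 genome with RefSeq's annotation. It is printed 5′ to 3′ in capitals with its flanking codons in lower case.
GRP7: tcaaggGGATTCGGATTCgtcacc
GRP8: tcaaggGGATTCGGATTCgtcacc
GR-RBP2: tcaaggGGGTTTGGATTTgtcaac
GR-RBP4: tcgaggGGATTCGGATTTgttagc
CSP1: tctaaaGGCTATGGTTTCattact
CSP2: cagaagGGTTTCGGCTTCatcact
CSP3: ggaaaaGGCTACGGTTTCattact
CSP4: cagaagGGGTTTGGTTTCatcaca
GRP7 (chromosome 2, 9265084 to 9266557, minus strand) and GRP8 (chromosome 4, 18273829 to 18275216, minus strand) held the same 24 letters here. GR-RBP2 lies on chromosome 4 (8020713 to 8022476, plus strand) and GR-RBP4 on chromosome 3 (8606429 to 8608297, minus strand). CSP1 (17042769 to 17044599) and CSP2 (18071449 to 18073182) lie on chromosome 4 and CSP3 (7763528 to 7765276) and CSP4 (9036766 to 9037782) on chromosome 2, all on the minus strand. The coding sequences of CSP1 and CSP3 held 7 in-frame CCHC zinc knuckle patterns each and those of CSP2 and CSP4 2 each, while the 4 glycine-rich members held 0. Glycine codons (GGN) made up 39.8% of the codons of GRP7, 38.5% in GRP8, 27.8% in GR-RBP2 and 18.4% in GR-RBP4, against 23.1% to 40.4% in the cold shock members.

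The closest relatives by coding sequence were CSP2 and CSP4 (81.9% identity over 576 aligned bases), GRP7 and GRP8 (78.6% over 504), CSP1 and CSP3 (74.6% over 858), and GR-RBP2 and GR-RBP4 (74.2% over 411). The longest identical run between any pair within a family was 39 bases, between GRP7 and GRP8. Every window of 50 bases within an exon of the 8 genes occurred once in the TAIR10.1 genome. Reads of that length or longer that lie within 1 exon and hold no errors would thus be assigned to 1 member. Windows across splice junctions were not checked. The sources used here do not state the read length or whether reads were counted by strand. CSP2 overlaps AT4G38670 on the same strand by 82 bases in this annotation, and reads from the overlap could be counted for either gene.

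Per gene length, the order of the members differed between the libraries. RPKM (reads per kilobase of gene length, scaled to the library total) is used for levels between genes. The deposited length of each member, such as 866 bases for GRP7 and 741 for GR-RBP2, equals no mRNA of the annotation used here. The order therefore holds for the deposited lengths, and counting error does not cover the choice of length. In the library labelled Col-0 20 °C, CSP2 was highest at 102 RPKM, followed by GR-RBP2 at 74.4 and GRP7 at 73.3, which did not differ beyond counting error. GRP8 was next at 47.1 RPKM, then CSP4 at 20.5 and CSP3 at 18.8, again a pair within counting error, and CSP1 at 11.2 and GR-RBP4 at 9.57. In the library labelled sme1-1 20 °C, GRP7 led at 3110 RPKM, 16.4 times the next member, GR-RBP2 at 189. GRP8 (147 RPKM), CSP2 (109), GR-RBP4 (43.8) and CSP4 (21.3) followed, and CSP3 (17.5) and CSP1 (16.6) did not differ beyond counting error.

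In the library labelled Col-0 4 °C, CSP2 again led at 85.1 RPKM, and GRP7 at 71.6 stood above GR-RBP2 at 57.0, a gap beyond counting error, with GRP8 next at 28.2 RPKM. CSP4, CSP3, GR-RBP4 and CSP1 lay between 14.0 and 7.53 RPKM there. In the library labelled sme1-1 4 °C, GRP7 led at 1632 RPKM over GR-RBP2 (124), GRP8 (98.1), CSP2 (57.4), GR-RBP4 (36.8), CSP1 (13.2), CSP3 (10.8) and CSP4 (9.31). GRP7 ranked 1451st of the 21507 genes listed in Col-0 20 °C by RPKM, 25th of 21401 in sme1-1 20 °C, 1459th of 21551 in Col-0 4 °C and 54th of 21352 in sme1-1 4 °C. Reads of GRP7 made up 17.8% and 21.8% of all reads of the 8 members in the libraries labelled Col-0 20 °C and Col-0 4 °C, and 84.1% and 81.4% in those labelled sme1-1.

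**Figure D1:**
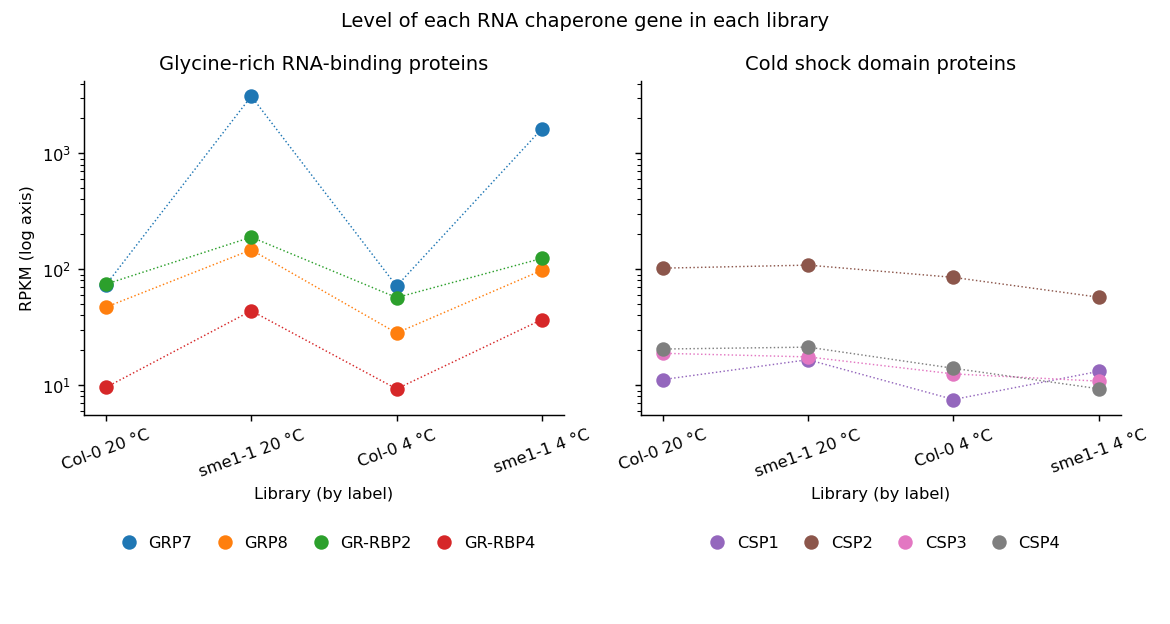
Level of each member (RPKM, log axis) in each of the 4 libraries, named by label; each point is 1 library and dotted lines join the points of 1 gene. The 4 glycine-rich members are higher in both libraries labelled sme1-1 than in both labelled Col-0, with GRP7 at 3110 and 1632 RPKM against 73.3 and 71.6.

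Between the libraries labelled sme1-1 and Col-0 at 20 °C, all 4 glycine-rich members passed 2-fold with the higher level in sme1-1, and no cold shock member was 2-fold apart. That made 4 of 8 members past 2-fold upward and 0 downward, against 8.94% and 7.03% of the 17218 genes compared (16% in either direction). The median log2 ratio was 0.96 over the members and 0.03 over all genes. GRP7 went from 63.5 CPM (2832 reads) to 2694 CPM (121162 reads), 42.4-fold (40.9 to 44.1). Its gain of 2630 CPM was the 5th highest of all genes and its ratio the 16th highest. GRP8, the clock-regulated sister of GRP7, went from 42.3 to 132 CPM, 3.12-fold (2.97 to 3.29). GR-RBP2, a mitochondrial protein, went from 55.1 to 140 CPM, 2.54-fold (2.43 to 2.67). GR-RBP4, its closest relative among the members, went from 7.73 to 35.4 CPM, 4.58-fold (4.07 to 5.16).

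Among the cold shock members in that pair, CSP1 stood at 21.3 CPM with the label sme1-1 against 14.4 CPM, a ratio of 1.48 (1.34 to 1.64). CSP2, which was reported to unwind nucleic acids and to be induced by cold, was at 141 against 133 CPM (1.06-fold, 1.03 to 1.10). CSP3, reported to contribute to freezing tolerance, was at 22.0 against 23.7 CPM (0.931-fold, 0.853 to 1.02), and CSP4 at 18.3 against 17.6 CPM (1.04-fold, 0.941 to 1.15). By library totals, the intervals of CSP3 and CSP4 include a ratio of 1, and the other 6 lie above it.

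In the second pair, labelled sme1-1 4 °C and Col-0 4 °C, which shares no library with the first, those 4 glycine-rich members again passed 2-fold upward and 0 of the 8 passed downward. The same threshold was passed by 11.7% of all genes upward and 7.75% downward (19.4% together), and the medians were 0.96 over the members and 0.09 over all genes. GRP7 was at 1413 against 62.0 CPM, 22.8-fold higher (22.0 to 23.7), GRP8 at 88.1 against 25.3 CPM, 3.48-fold (3.26 to 3.71), GR-RBP2 at 92.0 against 42.2 CPM, 2.18-fold (2.07 to 2.30), and GR-RBP4 at 29.8 against 7.51 CPM, 3.96-fold (3.53 to 4.47). CSP1 was again higher, at 16.9 against 9.67 CPM (1.75-fold, 1.56 to 1.97). The other cold shock members had their lower level with the label sme1-1: CSP2 at 74.5 against 111 CPM (0.674-fold, 0.646 to 0.704), CSP3 at 13.6 against 15.7 CPM (0.866-fold, 0.778 to 0.964) and CSP4 at 7.99 against 12 CPM (0.666-fold, 0.583 to 0.760). Scaling by TMM in place of library totals moves every log2 ratio of this pair by -0.10 and left each member's direction as given.

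Between the libraries labelled 4 °C and 20 °C, all 8 members had ratios below 1 within each genotype label, except that GRP7 in Col-0 lay just above 1 under TMM scaling. In the pair labelled Col-0, no member was at least 2-fold apart (background 0.796% upward and 0.778% downward, 1.57% together), and the median log2 ratio was -0.47 over the members and -0.03 over all genes. GRP7 was at 62.0 against 63.5 CPM (0.977-fold, 0.927 to 1.03) and GR-RBP4 at 7.51 against 7.73 CPM (0.971-fold, 0.835 to 1.13), both with intervals that include 1. GRP8 was 0.599-fold (0.556 to 0.644), GR-RBP2 0.766-fold (0.722 to 0.813), CSP1 0.673-fold (0.596 to 0.760), CSP2 0.833-fold (0.802 to 0.864), CSP3 0.664-fold (0.604 to 0.730) and CSP4 0.682-fold (0.611 to 0.761) the level of the 20 °C library.

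In the pair labelled sme1-1, CSP4 was the 1 member at least 2-fold lower at 4 °C, at 7.99 against 18.3 CPM (2.29-fold lower, 2.02 to 2.59), and none was at least 2-fold higher. Among all genes 2.47% passed downward and 3.15% upward (5.63% together), and the medians were -0.65 over the members and 0.03 over all genes. GRP7 was 1.91-fold lower (1.89 to 1.92), CSP2 1.89-fold (1.82 to 1.97), CSP3 1.62-fold (1.46 to 1.79), GR-RBP2 1.52-fold (1.47 to 1.58), GRP8 1.501-fold (1.44 to 1.56), CSP1 1.26-fold (1.15 to 1.39) and GR-RBP4 1.19-fold (1.11 to 1.28). The comparisons of temperature share their libraries with those of genotype and are not independent of them.

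The temperature ratio differed most between the genotype labels for GRP7, by -0.90 on the log2 scale (-0.97 to -0.82, an approximate 95% interval for counting error), and for CSP2 (-0.66, -0.74 to -0.58) and CSP4 (-0.64, -0.88 to -0.41). For these 3 members the library labelled sme1-1 4 °C lay lower, relative to sme1-1 20 °C, than Col-0 4 °C did relative to Col-0 20 °C. GR-RBP2 differed by -0.22 (-0.33 to -0.12), while GRP8 (0.15, 0.04 to 0.27) and CSP1 (0.24, 0.02 to 0.46) differed in the other direction. The intervals of GR-RBP4 and CSP3 include 0, and the median over 17215 genes was 0.06. With 1 library per group these differences have no test.

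Without the libraries whose labels are in doubt, the pair sme1-1 4 °C and Col-0 20 °C had 3 of 8 members past 2-fold upward (11.9% of all genes) and 1 past it downward (9.65%, or 21.5% of all genes in either direction). GRP7 was 22.3-fold higher (21.4 to 23.1), GR-RBP4 3.85-fold (3.42 to 4.34) and GRP8 2.08-fold (1.97 to 2.20). With TMM factors or DESeq2 size factors GRP8 fell short of 2-fold (log2 0.99 in both), which leaves 2 members upward, and the 2044 higher and 1662 lower genes became 1848 and 1884 with TMM. GR-RBP2 was 1.67-fold higher (1.59 to 1.75). CSP1 was 1.18-fold higher (1.06 to 1.31). CSP4 was 2.20-fold lower (1.94 to 2.50), CSP2 1.78-fold (1.71 to 1.86) and CSP3 1.74-fold (1.57 to 1.92). In this pair genotype, temperature and light differ together and cannot be told apart.

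**Figure D2:**
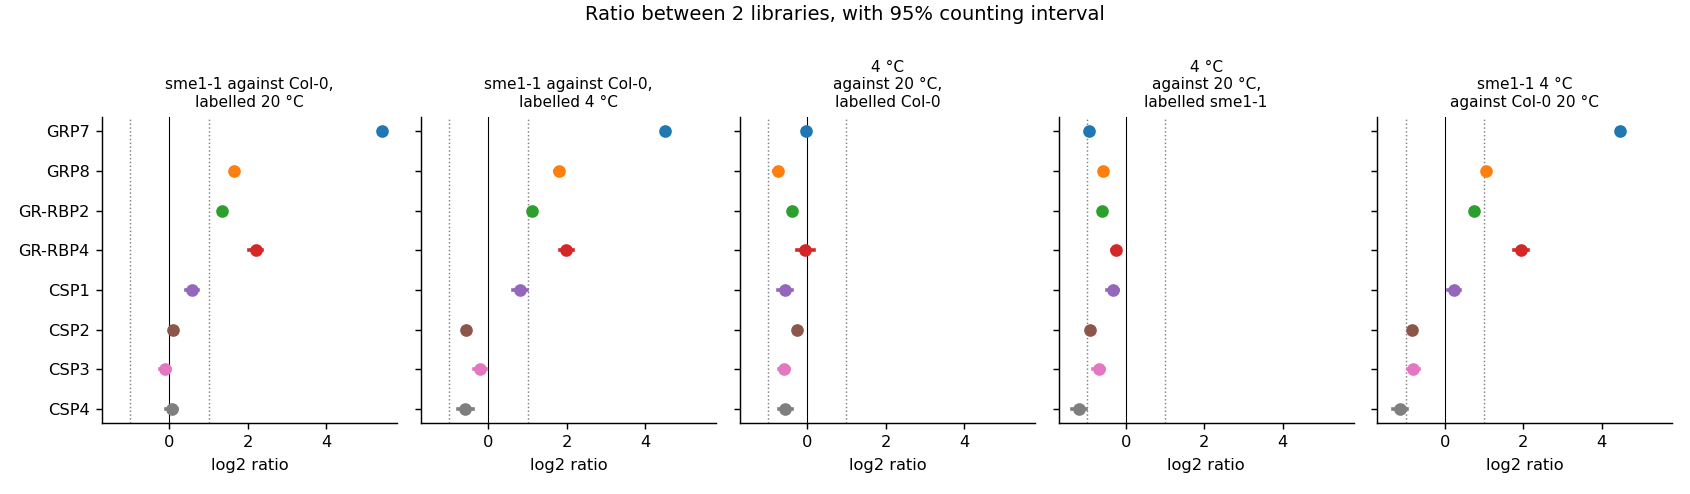
Log2 ratio of each member between 2 libraries (x axis) in the 5 comparisons, with the 95% counting interval as a bar, often hidden by the point; dotted lines mark 2-fold. GRP7 lies furthest to the right in the 3 comparisons that set sme1-1 against Col-0, at 42.4-, 22.8- and 22.3-fold, and the temperature comparisons hold all 8 members below 0 by library totals (GRP7 in Col-0 just above 0 with TMM).

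An additive model of both labels, the layout that leaves 1 residual degree of freedom, was fitted to all 4 libraries with edgeR's quasi-likelihood test. Its genotype term called 5 of 8 members higher and none lower with the label sme1-1 at an adjusted p under 0.05, against 24.2% of all genes called higher and 17.8% lower (42% in all). With TMM factors the calls over all genes were nearly even, at 3533 higher and 3491 lower, against 4161 and 3071 by library totals. The change in GRP7 was 4.96 ± 0.24 (log2, SE; edgeR adjusted p = 1.63e-10) and in GR-RBP4 2.09 ± 0.18 (edgeR adjusted p = 1.27e-07). GRP8 rose by 1.72 ± 0.16 (edgeR adjusted p = 4.11e-07), GR-RBP2 by 1.24 ± 0.16 (1.4e-05) and CSP1 by 0.69 ± 0.18 (0.00544). CSP2 (-0.24 ± 0.18), CSP3 (-0.15 ± 0.17) and CSP4 (-0.26 ± 0.20) did not pass, with edgeR adjusted p-values of 0.293, 0.487 and 0.307. The residual of this model holds noise and any difference in temperature response together.

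The temperature term called GRP8 (-0.66 ± 0.16, edgeR adjusted p = 0.0374) and CSP4 (-0.87 ± 0.20, edgeR adjusted p = 0.0295) lower with the label 4 °C and no member higher, against 1.13% of all genes lower and 0.918% higher (2.05% in all). With TMM scaling neither passed (edgeR adjusted p = 0.061 for GRP8 and 0.0599 for CSP4), and with DESeq2's Wald test CSP4 did not (DESeq2 adjusted p = 0.0777). The other 6 members had fitted changes of -0.64 (CSP3), -0.59 (CSP2), -0.50 (GR-RBP2), -0.49 (GRP7), -0.45 (CSP1) and -0.15 (GR-RBP4) and did not pass, at edgeR adjusted p-values from 0.0611 to 0.745. That 0 of 8 members were called higher with the label 4 °C is near the share of all genes, 0.918%. Each side of that term holds a library whose label is in doubt.

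**Figure D3:**
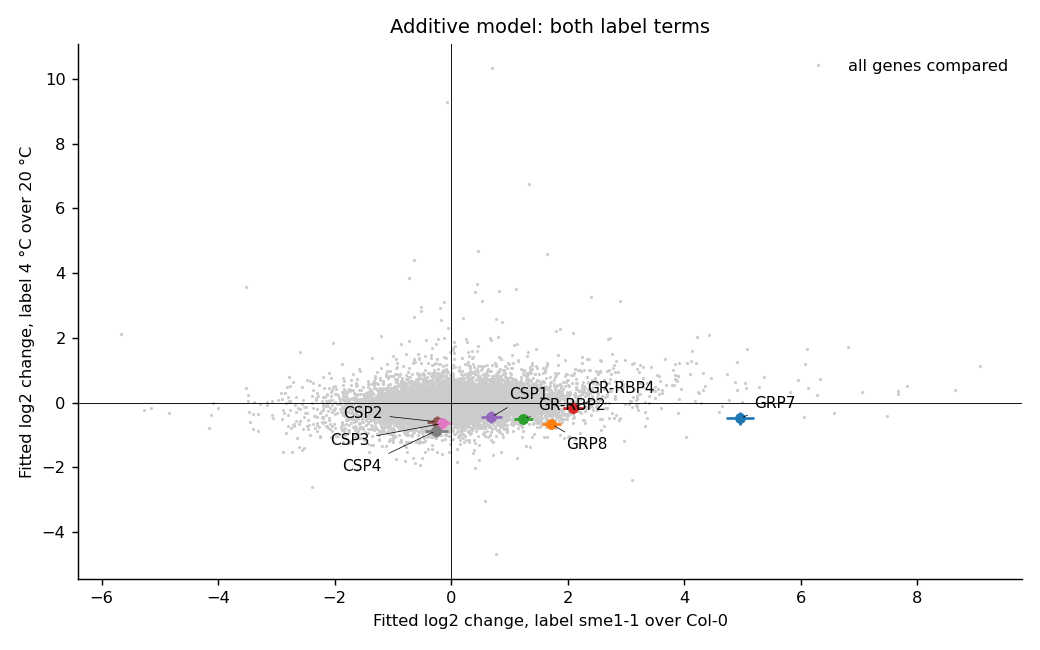
Fitted log2 change with the genotype label (x axis) against that with the temperature label (y axis) in the additive edgeR model; grey points are the 17218 genes compared, coloured points the 8 members, bars the SE. GRP7 stands at 4.96 on the x axis and CSP2, CSP3 and CSP4 lie together left of 0, at -0.24, -0.15 and -0.26.

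The profiles over the 4 libraries were close among CSP2, CSP3 and CSP4. As a description, the Euclidean distance between centred log2(CPM + 1) profiles was 0.22 between CSP2 and CSP4, 0.29 between CSP2 and CSP3 and 0.33 between CSP3 and CSP4. GRP8 was 0.53 from GR-RBP2 and 0.60 from GR-RBP4. CSP1 was nearer to GR-RBP2 (0.62) than to any cold shock member, CSP3 (0.83) being the nearest of these, with which it shares the number of zinc knuckles. GRP7 was at least 3.02 from every other member, the least being to GR-RBP4. The RPKM ratio of GRP7 to GRP8 was 1.56 and 2.54 in the libraries labelled Col-0 20 °C and 4 °C, and 21.1 and 16.6 in those labelled sme1-1. The ratio of CSP2 to CSP4 stayed between 4.98 and 6.16 over the 4 libraries.

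Likeness of profile was measured against the 10383 genes whose mean reached 10 CPM. Those nearest to GRP7 in profile were BT2 (distance 0.27), MEE14 (0.78) and AT3G62550 (1.05). BT2 was at 0.964, 75.3, 0.891 and 50.3 CPM in library order. Both of its values labelled Col-0 lie below the 1 CPM added before the log, which narrows its ratios between labels. With the labels Col-0 20 °C and 4 °C, MEE14 was at 2.56 and 4.05 CPM and AT3G62550 at 1.68 and 1.04 CPM. The distances of these genes from GRP7, and their order, therefore depend on the added CPM. Within a distance of 1 there were 2 genes for GRP7, 727 for GRP8, 708 for GR-RBP4, 2682 for GR-RBP2 and 4568 to 7268 for the cold shock members. The nearest were AT1G48570, SWA1 and PMH1 for GRP8, AT2G21440, YAO and EDA25 for GR-RBP2, and PES1, AT5G62350 and AT5G41670 for GR-RBP4. They were GLC, AT5G44170 and CR88 for CSP1, AT5G32450, AT1G51080 and OEP7 for CSP2, AT1G51805, PRA1.B6 and AT1G56660 for CSP3, and AT1G78260, ATCG00070 and XT1 for CSP4.

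The sequences before the gene starts are shown for GRP7 and GRP8, which rose by unequal amounts with the genotype label. Each is the 300 bases before the annotated start in TAIR10.1, 5′ to 3′ on the gene's strand, for GRP7 at chr2:9266558-9266857 and for GRP8 at chr4:18275217-18275516, both on the minus strand. Motifs were searched in the same window of 7 members, all but CSP2. Capitals mark the evening element AAATATCT, known from clock-controlled evening genes, and the site II core GGCCCA, each searched on both strands.
GRP7: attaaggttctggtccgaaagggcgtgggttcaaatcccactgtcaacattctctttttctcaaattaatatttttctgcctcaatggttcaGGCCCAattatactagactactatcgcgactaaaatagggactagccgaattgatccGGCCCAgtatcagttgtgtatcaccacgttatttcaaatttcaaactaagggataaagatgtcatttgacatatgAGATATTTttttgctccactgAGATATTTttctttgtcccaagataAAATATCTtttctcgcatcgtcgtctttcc
GRP8: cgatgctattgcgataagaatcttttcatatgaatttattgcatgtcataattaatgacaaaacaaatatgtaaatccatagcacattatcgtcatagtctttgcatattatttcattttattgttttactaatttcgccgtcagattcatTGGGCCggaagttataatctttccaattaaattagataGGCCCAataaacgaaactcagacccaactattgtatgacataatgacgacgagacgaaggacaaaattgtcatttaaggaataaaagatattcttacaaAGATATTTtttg
GRP7 held 3 evening elements, which begin 76, 55 and 30 bases before the start. A count of at least 3 was found in 8 of 27443 such windows of protein-coding genes (0.0292%), and at least 1 in 5.64%. The count of 3 was taken from GRP7 itself, and windows were counted this way for 1 of the 4 motifs searched. The share is therefore a description and not a test. GRP8 held 1, beginning 12 bases before the start, and the other 5 members searched had no match. The site II core was present in the windows of all 7 members searched and in 14.6% of all windows (18.7% of those of genes compared here). The core of the abscisic acid response element, ACGTG, was matched in 4 members, GRP7, GR-RBP4, CSP1 and CSP3, and in 25.6% of all windows. The core of the element bound by CBF factors, CCGAC, was matched in 0 of 7 members and in 13.9% of all windows. ACGTG and CCGAC were searched on both strands and no match in these 7 members overlapped a site II core or evening element, though 2 ACGTG matches in CSP3, at 72 and 71 bases, overlap each other. A match is a description of letters, not of binding.

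**Figure D4:**
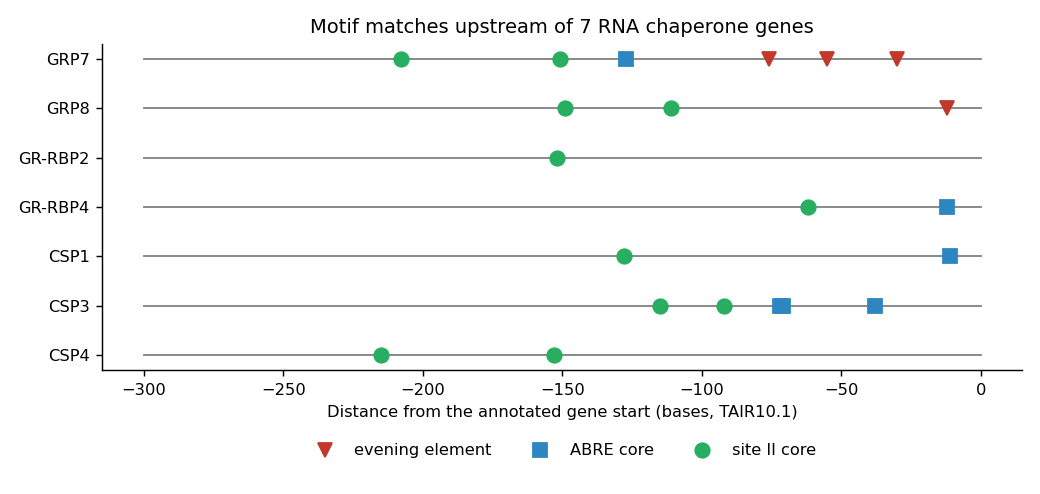
Position of motif matches in the 300 bases before the annotated start of 7 members (x axis, bases from the start, TAIR10.1); triangles are evening elements, squares the abscisic acid response element core and circles the site II core. Evening elements appear for GRP7, 76, 55 and 30 bases before the start, and for GRP8, 12 bases before it.

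Of 5 clock genes, whose products act upstream of GRP7, 3 passed with the genotype label (42% of all genes did). PRR5, an evening-phased pseudo-response regulator, was at 0.717, 31.3, 1.15 and 41.1 CPM in library order. TOC1, which represses morning genes, was at 8.90, 47.0, 10.14 and 55.3 CPM, and LHY, a morning MYB factor, at 836, 337, 709 and 272 CPM. CCA1, the partner of LHY, was at 506, 592, 456 and 558 CPM, and GIGANTEA (GI) at 21.9, 10.5, 29.7 and 40.3 CPM. In the additive model the genotype term called PRR5 and TOC1 higher and LHY lower (log2 5.29 ± 0.22, 2.42 ± 0.17 and -1.35 ± 0.17; edgeR adjusted p = 3.59e-11, 1.4e-08 and 7.87e-06), and the temperature term called GI higher (1.18 ± 0.25, edgeR adjusted p = 0.0211, and 0.0511 with TMM, which did not pass). Without the doubtful libraries, PRR5 was 57.3-fold higher (40.4 to 83.9), TOC1 6.21-fold, GI 1.84-fold and CCA1 1.10-fold higher, and LHY 3.08-fold lower, in sme1-1 4 °C against Col-0 20 °C. Their part in the GRP7 result was not tested.

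Both genes listed as acting on GRP7 protein passed higher with the label sme1-1 by library totals, where 24.2% of all genes did. PRMT5, an arginine methyltransferase that modifies GRP7 and Sm proteins, was at 16.4, 44.8, 13.9 and 44.5 CPM (1.57 ± 0.17, edgeR adjusted p = 1.45e-06). TRN1, the transportin that carries GRP7 into the nucleus, was at 42.7, 51.7, 42.1 and 67.1 CPM (0.47 ± 0.16, edgeR adjusted p = 0.0278), and did not pass with TMM (edgeR adjusted p = 0.0587) or DESeq2 (DESeq2 adjusted p = 0.119). In sme1-1 4 °C against Col-0 20 °C, PRMT5 was 2.72-fold and TRN1 1.57-fold higher.

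Among further glycine-rich RNA-binding relatives, 2 of 5 tested passed higher with the label sme1-1 and none lower, against 24.2% and 17.8% of all genes. GR-RBP3, a factor of RNA editing in mitochondria, was at 21.7, 75.1, 18.1 and 36.7 CPM (log2 change 1.41 ± 0.19, edgeR adjusted p = 1.68e-05), and RZ-1c, a zinc finger relative that binds splicing factors, changed by 0.45 ± 0.17 (edgeR adjusted p = 0.0375). RZ-1c did not pass with TMM (edgeR adjusted p = 0.0717) or DESeq2 (DESeq2 adjusted p = 0.185), which leaves 1 of 5. GR-RBP6 (0.47 ± 0.23) and RZ-1b (-0.06 ± 0.18) did not pass. Of 4 chloroplast ribonucleoproteins 1 passed higher, a share near that of all genes: CP29A (1179, 2751, 1325 and 1993 CPM; 0.91 ± 0.19, edgeR adjusted p = 0.00104). CP33A (-0.42 ± 0.17), CP31A (-0.13 ± 0.17) and CP31B (-0.07 ± 0.16) did not pass, though CP33A passed lower with TMM (edgeR adjusted p = 0.0388). CP29A and CP31A are known to stabilise chloroplast transcripts in the cold. In sme1-1 4 °C against Col-0 20 °C the ratio was 1.69 for GR-RBP3, 1.26 for RZ-1c, 1.07 for GR-RBP6, 0.695 for RZ-1b, 1.69 for CP29A, 1.06 for CP31A, 0.912 for CP31B and 0.725 for CP33A, so none of these 8 genes was 2-fold apart there.

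RNA helicases with roles in the cold or in organelle RNA were called higher in 6 of 8 and lower in none (24.2% and 17.8% of all genes), or in 5 of 8 with TMM or DESeq2, where RH3 did not pass, with a median log2 change of 0.98 against 0.06 over all genes. PMH1, a mitochondrial helicase of intron splicing, was at 44.5, 151, 32.2 and 104 CPM (1.73 ± 0.16, edgeR adjusted p = 3.8e-07). RH22, needed for chloroplast ribosome assembly, changed by 1.24 ± 0.16, PMH2, the sister of PMH1, by 1.05 ± 0.16, and RH39, a chloroplast ribosomal RNA factor, by 0.99 ± 0.16 (edgeR adjusted p = 1.06e-05, 6.65e-05 and 0.000151). In sme1-1 4 °C against Col-0 20 °C, PMH1 was 2.34-fold, PMH2 1.83-fold, RH22 1.75-fold and RH39 1.63-fold higher. The helicases LOS4 (79.8, 68.3, 68.6 and 77.6 CPM) and RCF1 (68.9, 71.8, 82.7 and 82.5 CPM) did not pass in any setting. Between those same libraries their ratios were 0.973 and 1.20, and that of RH3 was 1.22. Of 10 stress granule RNA-binding proteins 4 passed higher and none lower, beside 24.2% and 17.8% of all genes: TSN2 (0.89 ± 0.16), RBP47A (0.72 ± 0.16), RBP45A (0.57 ± 0.16) and RBP45C (0.55 ± 0.16), with edgeR adjusted p-values of 0.000282, 0.0016, 0.0099 and 0.0108. Their ratios in sme1-1 4 °C against Col-0 20 °C were 2.11 for TSN2, 1.33 for RBP47A, 2.11 for RBP45A and 1.60 for RBP45C. The temperature term called 0 of these 29 genes in the lists of partners, relatives, ribonucleoproteins, helicases and stress granule proteins in edgeR, against 2.05% of all genes. At an unadjusted p under 0.05 in edgeR there were 6, but the share of all genes at that threshold was not counted, so 6 has no background. DESeq2 also called 0 by adjusted p.

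**Figure D5:**
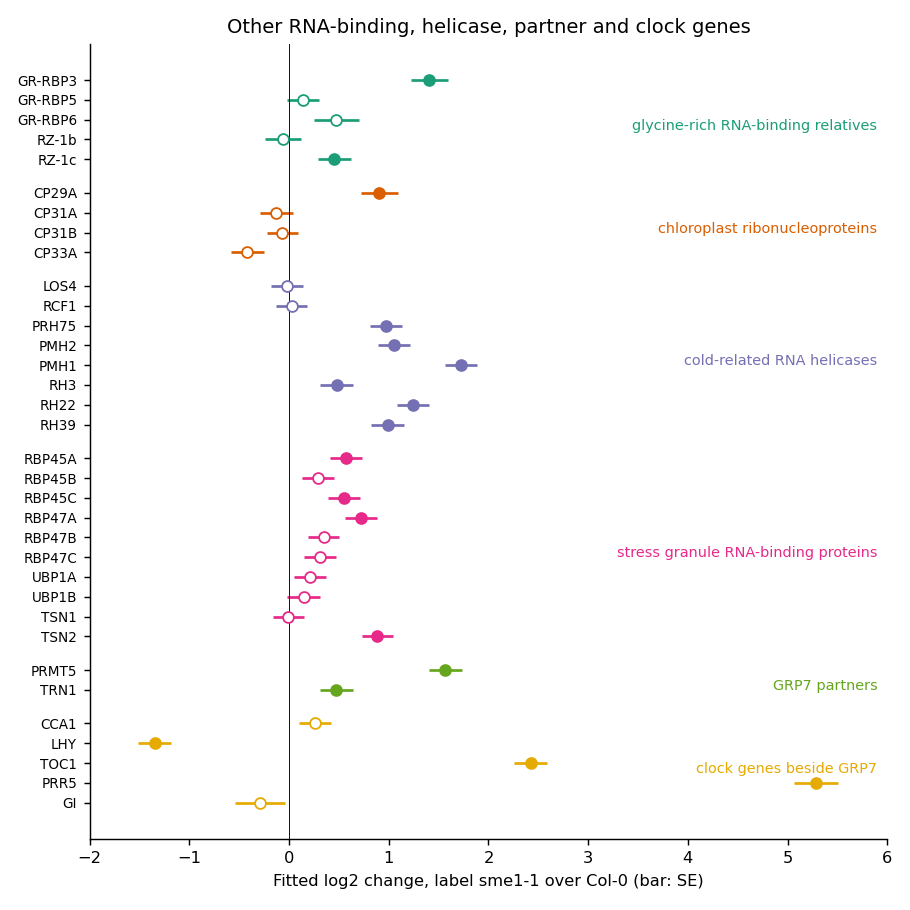
Fitted log2 change with the label sme1-1 over Col-0 (x axis, bars the SE) for the other RNA-binding, helicase, partner and clock genes, coloured by list; filled points passed an edgeR adjusted p of 0.05 and open points did not. PRR5 stands furthest right at 5.29 and LHY furthest left at -1.35.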

How the data were processed

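The deposited tables hold 1 row per gene and library. Per the file headers they give the count of unique reads, the gene length, the percent of that length covered by reads and the RPKM, which the authors computed from the count, the length and the library total. The submitters' processing notes name TAIR 10, and the aligner and counter are not stated there. A gene missing from a table was set to 0. Counts were scaled to CPM by the library total. The 17218 of 23049 genes whose mean reached 1 CPM were compared with a prior count of 2 on the log2 scale, and a 2-fold threshold was used because each group has 1 library. A model with 1 term for the genotype label and 1 for the temperature label (1 residual degree of freedom) was fitted over all genes with edgeR 4.0.16 (quasi-likelihood test, Benjamini-Hochberg adjusted p under 0.05) in R 4.3.3, with library totals as library sizes, and was first tested on simulated data. The simulated counts held no difference in temperature response between the genotype labels, so that check does not cover such a difference. The SE given with an edgeR change is its absolute log2 value divided by the square root of the test's F statistic. DESeq2 1.42.0 was an alternative. The model's p-values rest on the departure of 4 libraries from additivity, not on replicates. In edgeR most of each gene's error is drawn from the trend over all genes (prior degrees of freedom 15.64, beside 1 residual). A p-value therefore reflects the gene's own departure only in small part. Sequences and annotation came from RefSeq's TAIR 10.1 and were read with Python 3.11.15. The deposited tables hold no coordinates.

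The members and gene lists were chosen with earlier results of these data known. Of each further list up to 4 genes with the largest fitted change for either label were named, and for each member the 3 genes nearest in profile. CCA1, RH3, RCF1 and LOS4 were named in addition after their values were seen. CP29B, CP33B, CP28A, RH50 and UBP1C were left out because the annotation did not pair their names with their codes. RZ-1a did not pass the filter. The window upstream of CSP2 is not reported here.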

Additional observations from a re-analysis of the deposited data

Results flagged for a closer look

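CSP2 lay on opposite sides of 1 in the libraries labelled sme1-1 against Col-0: the ratio was 1.06 at 20 °C and 0.674 at 4 °C. The interval at 20 °C was 1.03 to 1.10 by library totals. TMM scaling moves every log2 ratio of that pair by -0.04, so whether this interval excludes 1 depends on the scaling. With 1 library per group the difference between these ratios was not tested against any spread between plants.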

How the results depend on the processing

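No member's ratio or fitted change turned in the fits, filters and prior counts tried, apart from GRP7 between 4 °C and 20 °C in Col-0, whose ratio near 1 moved just above it with TMM scaling. Among the other lists' genes, tried after the data were seen, RCF1 turned from a log2 change of 0.03 with the genotype label to -0.0429 with TMM, -0.0408 with DESeq2 size factors and -0.0408 with DESeq2, without passing in any. The 5 members called with the genotype label were called in all 6 settings. The members called lower with the temperature label were 2, against 0 with TMM factors in edgeR and 1 with DESeq2's Wald test. Over all genes that label gave 353 calls, 224 with TMM and 216 with DESeq2. With a 1.5-fold threshold in place of 2-fold, the members lower at 4 °C rose from 0 to 2 in Col-0 and from 1 to 6 in sme1-1. Those lower in sme1-1 4 °C against Col-0 20 °C rose from 1 to 3. The share of all genes at 1.5-fold was not counted, so these counts have no background. GRP8 in sme1-1 lay at that threshold (1.501-fold lower, 1.44 to 1.56). In that last pair the members higher were 3, and 2 with TMM or DESeq2 size factors. At 4 °C, 60.1% of the genes at least 2-fold apart were higher in sme1-1 by library totals and 51.1% by TMM.

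No paired analysis was possible because each group has 1 library. No library was left out of the additive model, which would then have no residual degree of freedom. The labels of 2 libraries go against SME1 and the cold-regulated genes, so what each label stands for is the main limit on every direction.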

Other observations

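RZ-1a, a cold-induced zinc finger relative of the glycine-rich members, had counts of 14, 34, 6 and 94 in library order, over 7.25% to 14.6% of its length. AT4G38670, which overlaps CSP2 by 82 bases on the same strand, had counts of 438, 436, 512 and 258, against 5924, 6345, 5213 and 3489 for CSP2.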
